A study of Mus musculus with 12 samples.

Results

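The genes described here build, cut and crosslink the extracellular matrix: matrix metalloproteinases (MMPs), their tissue inhibitors (TIMPs), the ADAMTS proteases, the related ADAMTS-like proteins, the lysyl oxidases and the lysyl hydroxylases. They were picked by gene symbol alone, which gave 59 of the 24532 genes in the count table: 23 MMPs, 4 TIMPs, 19 ADAMTSs, 5 ADAMTS-like genes, 5 lysyl oxidases and 3 lysyl hydroxylases. The samples are whole livers of mice, 20 wk old, on a C57BL/6x129S6/SvEv background, sequenced as total RNA. The 12 libraries were taken as 12 mice. The groups were 4 Atp7b-/- mice that received an agonist of the liver X receptors (KO-Drug), 4 Atp7b-/- mice without it (KO) and 4 heterozygous controls (Het). The labels give no sex, no litter and no agonist name, dose or duration, and every group carries at least 1 mutant Atp7b allele, so there is no wild-type liver. Atp7b encodes a copper-transporting ATPase of the hepatocyte, and its loss is a mouse model of Wilson disease.

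Most MMPs are secreted or membrane-bound zinc enzymes made as inactive precursors, and TIMPs block them by sitting in the active site. ADAMTS enzymes trim procollagen or cut proteoglycans. Lysyl oxidases are copper enzymes that start the covalent crosslinks of collagen and elastin outside the cell, while lysyl hydroxylases modify collagen inside the endoplasmic reticulum. In injured liver these genes are known mainly from stellate cells, macrophages, neutrophils and bile duct epithelium, which are minor cells of the healthy organ.

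Library totals ran between 16535938 and 28329751 counts. The Alb level lay between 19024 and 82160 CPM (counts per 1e6 counts, TMM-scaled), so the liver label holds, and Atp7b lay between 1.27 and 3.49 CPM in the 8 knockout libraries, against 9.90 to 16.2 CPM in Het. The level of Xist, which female cells transcribe, was 81.7 CPM in the KO 5 library, 17.8 CPM in the KO 6 library and no more than 0.425 CPM in any other, so the counts of called genes are also given without KO 5 and KO 6. The level of Ddx3y, which lies on the Y chromosome, was 0.379 CPM in KO 5 and 64.4 CPM in KO 6, so KO 6 held both, and it was 79.4 to 110.5 CPM in the other 10 libraries. In bulk RNA, fewer cells of a type and less RNA per cell cannot be told apart.

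A minimum level of 0.491 CPM in 4 libraries left 36 of the 59 genes for testing among 13379 genes. The filter itself favours genes that are high in KO: 11 of the 36 passed it through their KO libraries and 25 would have passed without them. Of the 23 genes set aside, 7 had no count in any library: Mmp1a, Mmp1b, Mmp3, Mmp10, Mmp21, Adamts8 and Adamts18.

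Of the 23 MMP genes, 10 lie side by side on chromosome 9 (chr9:7272514-7699585, mm10), in the order Mmp13, Mmp12, Mmp1b, Mmp3, Mmp1a, Mmp10, Mmp8, Mmp27, Mmp20 and Mmp7. In this cluster 5 genes had a count in KO-Drug, 6 in KO and 3 in Het. Promoters of this cluster are known for the TPA response element, a binding site of AP-1 with the letters TGAGTCA or TGACTCA. The motif searched was the looser TGANTCA, which reads the same on either strand. That motif occurred in the 300 bases around the start (250 before, 50 after) of 8 of the 10 cluster genes and of 0 of the 29 other members with a RefSeq window, against 8.97% of all 27025 genes with at least 1 such window. In Mmp20 the match was TGAATCA, which the looser motif admits but which is not the TPA response element. These counts are therefore of the looser motif and not of that element. Shown are the promoters of the 5 cluster genes with the most reads, from 110 bases before to 10 bases after the start, on the gene's strand (all plus; RefSeq, GRCm38.p6), with the motif in capitals where present.
Mmp13, chr9:7272404-7272523: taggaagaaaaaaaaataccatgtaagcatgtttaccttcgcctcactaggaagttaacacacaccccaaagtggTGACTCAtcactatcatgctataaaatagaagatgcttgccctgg
Mmp12, chr9:7347264-7347383: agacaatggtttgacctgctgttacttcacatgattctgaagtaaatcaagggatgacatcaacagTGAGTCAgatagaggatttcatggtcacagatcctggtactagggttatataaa
Mmp7, chr9:7691980-7692099: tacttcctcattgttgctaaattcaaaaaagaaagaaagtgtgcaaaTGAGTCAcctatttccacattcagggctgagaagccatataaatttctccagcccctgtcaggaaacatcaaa
Mmp8, chr9:7558319-7558438: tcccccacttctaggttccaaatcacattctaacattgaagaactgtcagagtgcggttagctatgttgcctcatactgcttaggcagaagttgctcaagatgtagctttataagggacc
Mmp27, chr9:7571286-7571405: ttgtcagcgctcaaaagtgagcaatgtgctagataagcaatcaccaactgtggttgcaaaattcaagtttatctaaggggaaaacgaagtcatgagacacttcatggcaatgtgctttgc

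The motif begins 35 bases before the start in Mmp13, 44 bases in Mmp12 and 63 bases in Mmp7. Mmp12 and Mmp7 each have 2 annotated starts, and the window of the other start holds no match. Mmp8 and Mmp27 hold no match in their windows, which says only that these letters are absent there. A match is a description and not a bound site.

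KO against Het asks what loss of Atp7b goes with in these genes. Of the 36 genes tested, 17 were called higher in KO and 0 lower by edgeR's quasi-likelihood test (Benjamini-Hochberg adjusted p under 0.05 over all genes). At an unadjusted p under 0.05, 20 were higher and 0 lower, a threshold for which no share of all genes was computed. DESeq2 called 18 higher and 0 lower, beside 24.8% and 18.7% of all genes. Over all 13379 genes, edgeR called 23.0% higher and 17.7% lower. By role, the 17 were 8 of 10 MMPs, 3 of 4 lysyl oxidases, 4 of 13 ADAMTSs, 1 of 3 TIMPs, 1 of 3 ADAMTS-like genes and 0 of 3 lysyl hydroxylases. The median log2 change of the 36 was 0.90, against 0.02 for all genes. All 4 KO libraries lay above all 4 Het libraries for 17 of the 36 genes, against 22.2% of all genes. The 36 include 11 genes that passed the filter on low counts only through KO, a route that needs a high level in KO. Of these 11, 6 were called higher: Mmp8, Mmp12, Mmp24, Mmp27, Timp1 and Adamtsl3. The rest were Mmp23, Loxl1, Adamts3, Adamts4 and Adamts6. The shares by role above include these genes, so those shares and the 6 calls are not independent of the filter. Of the other 25, 11 were called higher, 10 had all KO libraries above Het, and the median log2 change was 0.71. The shares of all genes given here also hold genes that passed only through KO. A share for all genes that pass without KO was not computed, so these 25 lack a matching background. Without KO 5 and KO 6, with the filter run anew and all members counted, 18 were called higher, beside 19.5% of all genes. There Mmp12 and Adamtsl3 lost the call, Adamtsl2 and Plod2 gained it, and a member outside the 36 was also counted. Total-count scaling raises the median of all genes to 0.54 and calls 29 of the 36 higher and 0 lower, but there 6895 of all genes are called higher and 460 lower, against 3077 and 2371 with TMM.

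KO-Drug against KO asks what the agonist goes with in the knockout. Of the 36 genes, 12 were called lower in KO-Drug and 0 higher, where 11.0% of all genes were called lower and 8.80% higher. At an unadjusted p under 0.05, 21 were lower and 0 higher, again without a share of all genes at that threshold. DESeq2 called 16 lower and 0 higher, beside 13.85% and 10.9% of all genes. The median log2 change was -0.98, against -0.02 for all genes. Among the 25 genes that pass the filter without KO, 10 were called lower, 10 had all KO-Drug libraries below KO and the median was -0.81, while 2 of the 11 that passed only through KO were called lower. Here too, no matching share of all genes that pass without KO was computed. With KO 5 and KO 6 left out and the filter run anew, 12 members were called lower and 0 higher. Of all genes, 10.8% were called lower and 8.54% higher in that fit. There Adamts7, Mmp12 and Mmp15 lost the call, Adamts9 and Mmp2 gained it, and a member outside the 36 was also counted. All 4 KO-Drug libraries lay below all 4 KO libraries for 16 of the 36 genes, against 12.5% of all genes, and above them for 1 gene, Plod1, against 11.4%. The count of 12 genes called lower rests on single libraries: it was 5 without KO-Drug 3, 6 without KO 2, 6 without KO 4 and 7 without KO-Drug 4, and in those same fits 910, 1061, 900 and 1064 of all genes were called lower, against 1477. Total-count scaling put the median of all genes at -0.36 and called 22 of the 36 lower; of all genes it called 358 higher and 3898 lower, against 1177 and 1477 with TMM.

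The 2 comparisons share the KO libraries, so their opposite signs are not separate findings. KO-Drug against Het contrasts no KO library. There 2 of the 36 genes were called higher, Mmp8 and Adamts15, and 2 lower, Adamts7 and Timp2, where 13.0% and 8.45% of all genes were called. The median log2 change was 0.11, against 0.00 for all genes. Leaving out KO 5 and KO 6 gave 3 higher and 3 lower, with Mmp19 gained among the higher and Mmp14 among the lower. In that fit 12.1% of all genes were called higher and 8.41% lower. All 4 KO-Drug libraries lay above Het for 3 genes (13.6% of all genes) and below Het for 2 (11.0%). Total-count scaling called 5 higher and 1 lower of the 36, and 2433 higher and 499 lower of all genes, against 1735 and 1130 with TMM.

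**Figure D1:**
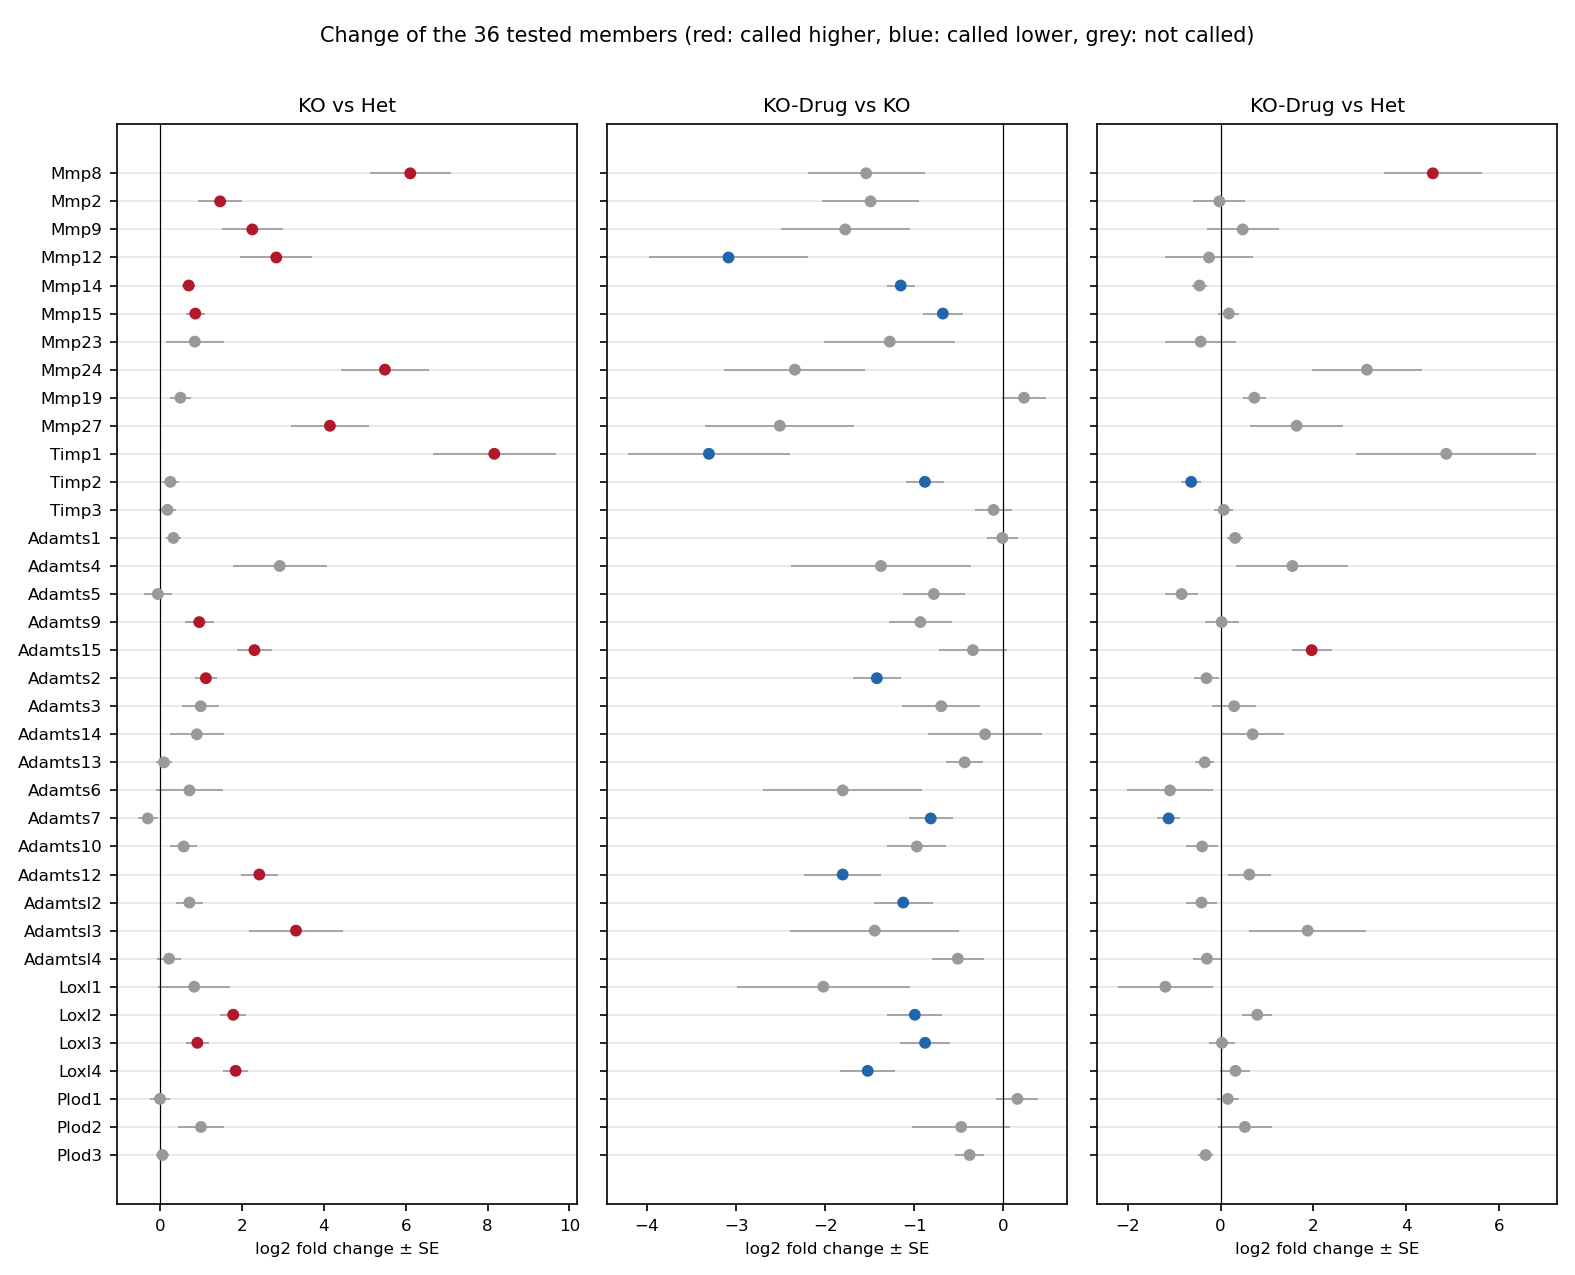
Log2 fold change with its SE for the 36 tested genes, ordered by role, in KO vs Het, KO-Drug vs KO and KO-Drug vs Het (x axes differ in range). Red marks a call higher, blue a call lower and grey no call: 17 red points stand in the KO vs Het panel, 12 blue ones in KO-Drug vs KO, and 2 of each in KO-Drug vs Het. The values of Timp1, Mmp8 and Mmp24 against Het are fitted against Het levels at or near 0 and are not measured sizes.

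Of 4 membrane-anchored MMPs tested, 3 were called higher in KO vs Het and 2 lower in KO-Drug vs KO. Mmp14 (gene number 17387, chr14:54431598-54442456), the membrane enzyme that activates pro-MMP2, was at 16.0, 15.6, 17.6 and 14.5 CPM in KO-Drug, at 37.9, 43.0, 30.6 and 30.1 CPM in KO and at 16.0, 22.1, 25.0 and 24.3 CPM in Het. Every KO library lay above every library of both other groups. Its log2 change was 0.70 in KO vs Het (SE 0.16, adjusted p = 0.0033) and -1.15 in KO-Drug vs KO (SE 0.16, adjusted p = 0.00079), and both calls held without any 1 library. In KO-Drug vs Het the change was -0.45 (SE 0.16, adjusted p = 0.0561), with KO-Drug averaging 15.9 ± 1.28 CPM and Het 21.8 ± 4.06 CPM (SD, n = 4 each).

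Mmp15, a second transmembrane MMP, was at 30.7, 60.3, 35.0 and 38.6 CPM in KO-Drug, at 73.1, 65.4, 59.5 and 65.5 CPM in KO and at 23.4, 46.4, 42.1 and 33.6 CPM in Het. KO lay above Het throughout (log2 0.86, SE 0.22, adjusted p = 0.0085), while KO-Drug 2 reached into the KO range. The call in KO-Drug vs KO (log2 -0.68, SE 0.22, adjusted p = 0.0487) was lost without any 1 library other than Het 1, Het 2 and KO-Drug 2 (adjusted p = 0.0566 to 0.130). Mmp15 lies on the same chromosome as Atp7b, at chr8:95352296-95374293, and so does Mmp2, at chr8:92827290-92853421.

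Mmp24, a transmembrane MMP best known from neurons, stood at 1.06, 0, 0.165 and 0.318 CPM in KO-Drug, at 1.17, 2.71, 1.69 and 2.45 CPM in KO and at 0.155, 0, 0 and 0 CPM in Het. KO libraries were thus all above the others, and 3 Het libraries held no read. The 214 KO counts against 3 Het counts give a ratio of levels of 48.5 (exact 95% interval 16.4 to 237, counting error only; adjusted p = 0.0015). KO-Drug was lower than KO without a call (log2 -2.34, SE 0.79, adjusted p = 0.0537). Mmp24 overlaps BC029722, which also had more counts in KO: 134, 63, 82 and 96 in KO-Drug, 229, 155, 327 and 163 in KO, and 53, 64, 46 and 41 in Het. Their part in each other's counts was not tested, since the strand setting of the counting is not given in the sources used here. Mmp23 was not called in any comparison (0.00 to 1.17 CPM over the 12 libraries).

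Both gelatinases, which cut denatured and basement membrane collagen, were called higher in KO. Mmp2, a stellate cell product, was at 1.66, 0.365, 0.992 and 0.637 CPM in KO-Drug, at 2.76, 5.27, 1.11 and 1.27 CPM in KO and at 0.979, 0.623, 1.06 and 1.07 CPM in Het. KO 5 and KO 6 lay only just above the highest Het library. The log2 change of 1.46 (SE 0.54, adjusted p = 0.0443) was 0.88 without KO 4 (adjusted p = 0.194), and the call was also lost without KO 2, KO-Drug 3, KO-Drug 4 or any Het library (adjusted p = 0.0519 to 0.108). Mmp9, a product of neutrophils and macrophages, was at 1.71, 0.365, 0 and 0.796 CPM in KO-Drug, at 3.08, 4.20, 1.49 and 1.22 CPM in KO and at 0.722, 0.364, 0.635 and 0.357 CPM in Het. Its log2 change in KO vs Het was 2.25 (SE 0.75, adjusted p = 0.0279), and the call was lost without KO 2, KO 4, Het 2, Het 3 or Het 4 (adjusted p = 0.0507 to 0.0823). In KO-Drug vs KO neither was called: Mmp2 stood at -1.49 (SE 0.54, adjusted p = 0.0689) and Mmp9 at -1.77 (SE 0.72, adjusted p = 0.101).

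Among the collagenases, Mmp8, the enzyme of neutrophil granules, was at 1.26, 0.313, 0.331 and 1.06 CPM in KO-Drug, at 1.29, 4.90, 0.904 and 1.69 CPM in KO and at 0, 0.104, 0 and 0 CPM in Het. Both knockout groups lay wholly above Het and overlapped each other. KO-Drug held 57 counts and Het 2, a ratio of 28.9 (exact 95% interval 7.65 to 245; adjusted p = 0.0076). KO-Drug vs KO gave a log2 change of -1.54 (SE 0.66, adjusted p = 0.117). Without Het 2 the fitted change in KO-Drug vs Het was 7.07 in place of 4.57, with Het then at 0, and in KO vs Het it was 8.62 in place of 6.11 (SE 0.99, adjusted p = 0.00045). Mmp13, the broad collagenase of mouse tissue, had 0, 4, 0 and 0 counts in KO-Drug, 0, 0, 13 and 8 counts in KO and none in Het, and was too low to test.

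Mmp12, the macrophage elastase, was at 0.605, 0.885, 0 and 0.265 CPM in KO-Drug, at 1.96, 3.13, 5.83 and 4.27 CPM in KO and at 0.258, 0.208, 0 and 1.63 CPM in Het. All KO libraries exceeded all others. The log2 change was 2.84 in KO vs Het (SE 0.88, adjusted p = 0.0198) and -3.09 in KO-Drug vs KO (SE 0.89, adjusted p = 0.029). Without Het 4, the highest Het library, KO vs Het gave 4.55. The KO vs Het call was lost without KO 5, Het 1 or Het 2 (adjusted p = 0.0513 to 0.0551) and the KO-Drug vs KO call without KO 4, KO 5, KO 6, KO-Drug 3 or KO-Drug 4 (adjusted p = 0.0515 to 0.0771). Without KO 5 and KO 6 together both were lost (adjusted p = 0.143 and 0.147).

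Mmp27, a little-studied cluster gene, was at 2.27, 0.208, 0.276 and 0.478 CPM in KO-Drug, at 2.87, 1.87, 8.66 and 5.19 CPM in KO and at 0.619, 0, 0 and 0.408 CPM in Het. KO lay above Het throughout (log2 4.15, SE 0.95, adjusted p = 0.004), and KO-Drug 1 lay within the KO range. KO-Drug vs KO gave -2.51 (SE 0.84, adjusted p = 0.0512). Mmp12, Mmp27 and Mmp13 had their highest values in KO 5 and KO 6, where Xist was present, whereas Mmp2, Mmp8, Mmp9 and Timp1 peaked in KO 4. The part of sex in these levels was not tested.

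Mmp7, matrilysin, an epithelial MMP of the bile duct in injured liver, was set aside by the filter with 0, 0, 0 and 6 counts in KO-Drug, 21, 107, 4 and 9 counts in KO and none in Het. It was at least 32.0-fold higher in KO than in Het against a floor of 3 counts over the Het libraries, and at least 9.50-fold without KO 4, which held most of the reads. A fit without the filter called it higher in KO vs Het (adjusted p = 0.0122) and not in KO-Drug vs KO (adjusted p = 0.0779). Mmp25, a leukocyte membrane MMP, had no count in KO-Drug, 11, 11, 2 and 3 counts in KO and none in Het, and the same fit called it higher in KO vs Het (adjusted p = 0.0341). The remaining low MMPs were Mmp11, Mmp16, Mmp17, Mmp20 and Mmp28, with at most 27 counts in a library and no call in that fit.

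Mmp19, an MMP of many resting tissues, was the MMP with the highest level per gene length. It was at 123, 89.5, 94.3 and 95.4 CPM in KO-Drug, at 65.8, 56.3, 118 and 103 CPM in KO and at 43.3, 86.1, 60.9 and 52.5 CPM in Het. KO-Drug lay wholly above Het and overlapped KO. No comparison was called: the log2 change was 0.73 in KO-Drug vs Het (SE 0.25, adjusted p = 0.0528) and 0.49 in KO vs Het (SE 0.25, adjusted p = 0.128). The lack of a call in KO-Drug vs Het depended on the processing. Of 21 alternatives, 10 called it higher, DESeq2 among them, and the others did not.

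**Figure D2:**
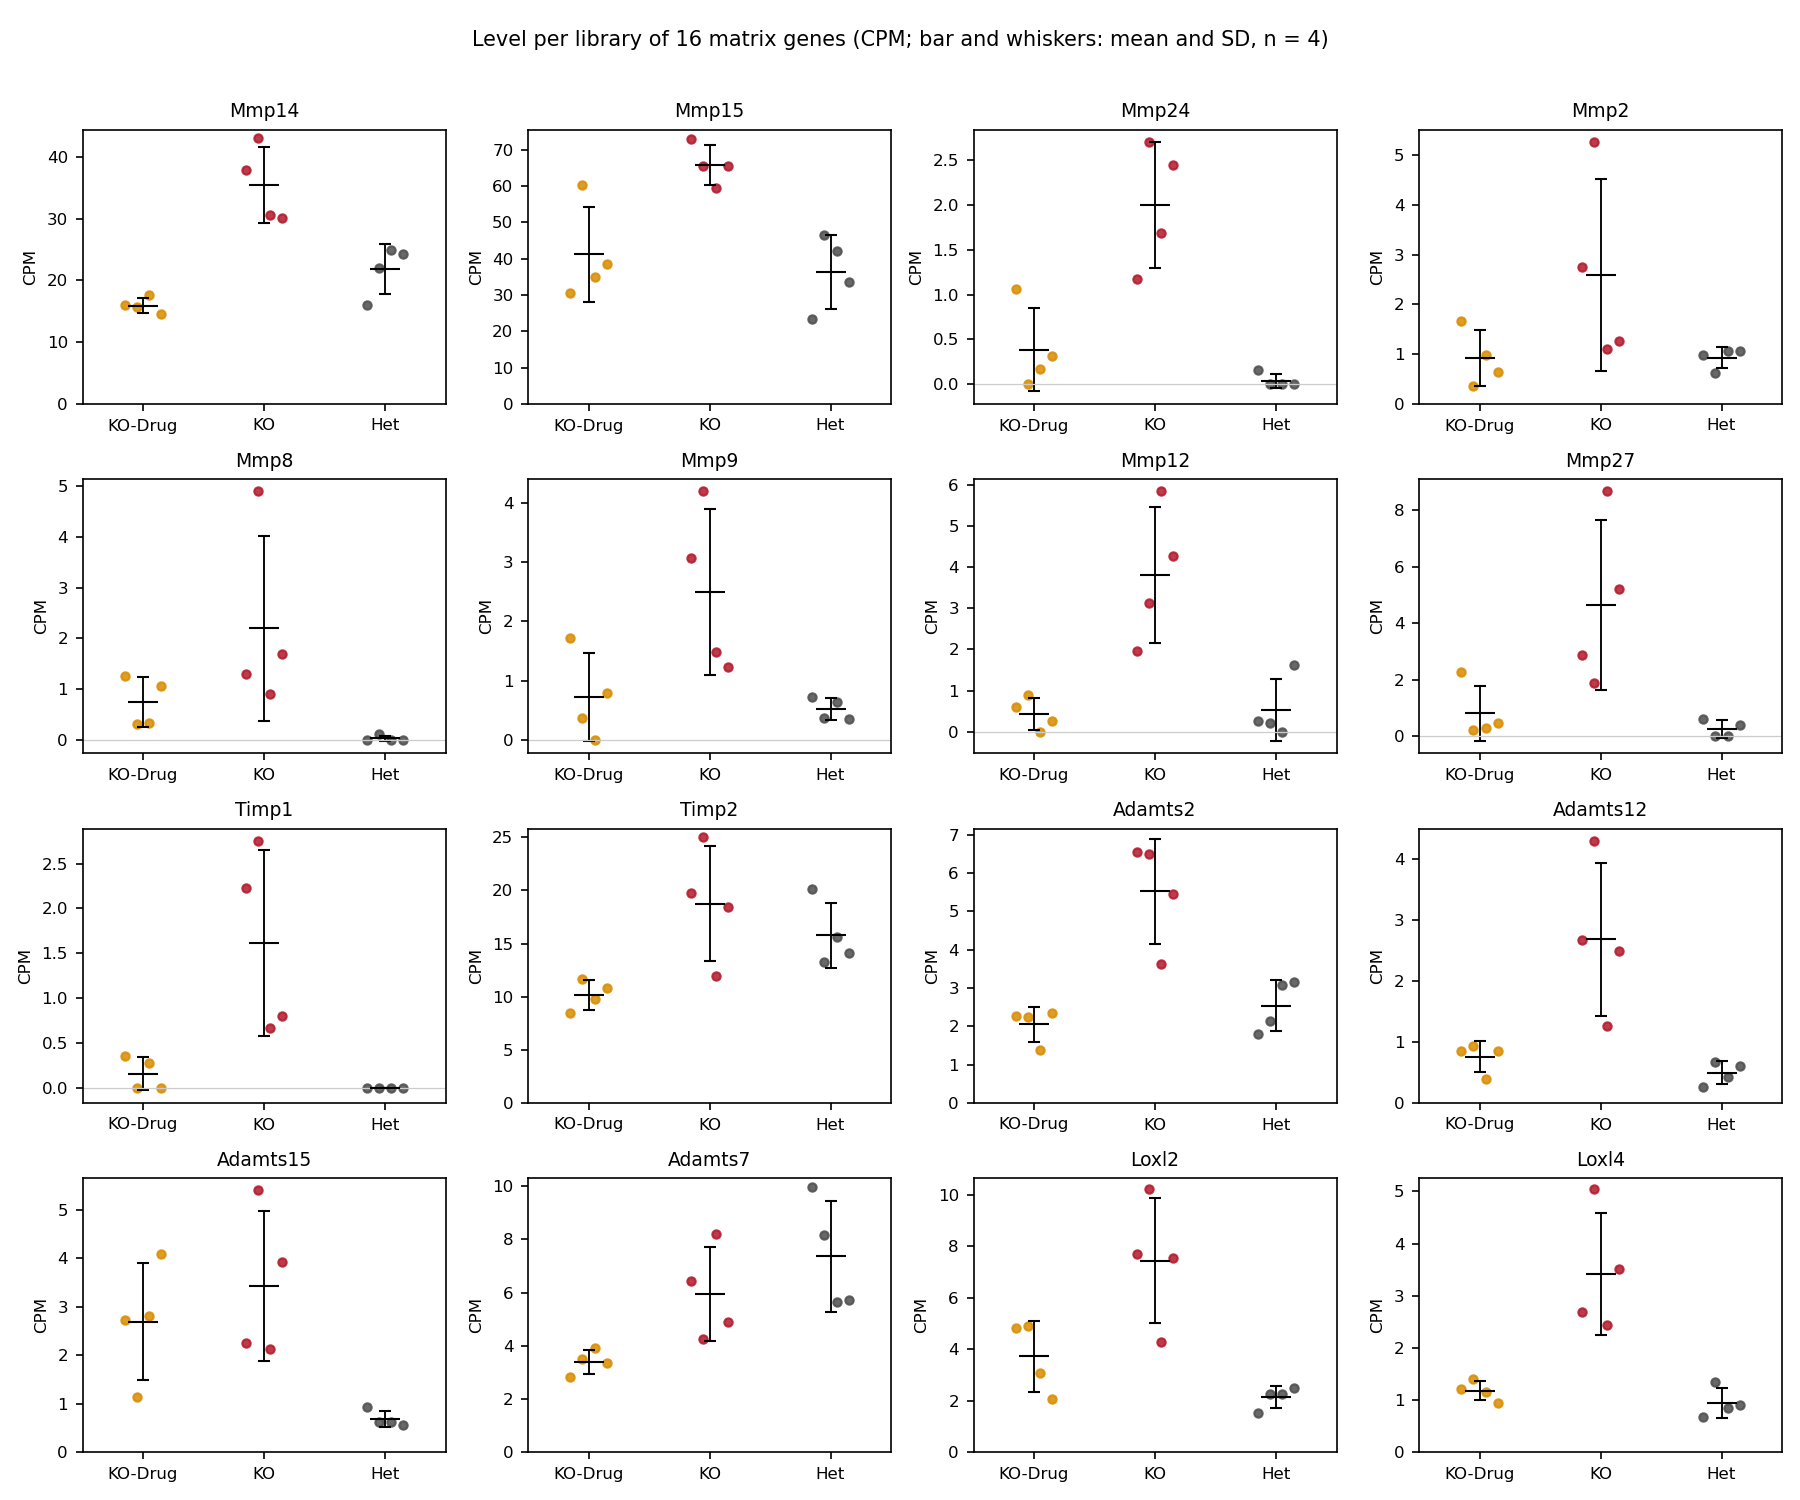
Level in CPM of 16 of the genes in each library, with KO-Drug, KO and Het from left to right; points are libraries, the bar is the mean and the whiskers the SD (n = 4). In Mmp14, Mmp12, Mmp24, Timp1, Adamts12, Adamts2 and Loxl4 the 4 KO points lie above all KO-Drug and Het points, whereas in Adamts15 and Mmp8 KO-Drug and KO overlap above Het, and in Adamts7 and Timp2 KO-Drug lies below both other groups.

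Of the 3 inhibitors tested, 1 was called higher in KO vs Het, and 2 were called lower in KO-Drug vs KO. Timp1 (chrX:20870166-20874737), the inhibitor induced in injured liver, was at 0.353, 0, 0.276 and 0 CPM in KO-Drug, at 2.23, 2.75, 0.671 and 0.802 CPM in KO and at 0 in all 4 Het libraries. KO was at least 40.1-fold above Het against a floor of 3 counts over the Het libraries (adjusted p = 0.0019), and at least 33.0-fold without KO 4. KO-Drug vs KO gave a log2 change of -3.31 (SE 0.91, adjusted p = 0.0299), a call lost without KO 2, KO 4, KO-Drug 2, KO-Drug 3 or KO-Drug 4 (adjusted p = 0.0611 to 0.0836). Timp1 lies within the span of Syn1, which had 3 to 8 counts in KO-Drug, 9 to 19 in KO and 0 to 12 in Het.

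Timp2, which also serves MMP14 in activating MMP2, was at 8.42, 11.7, 9.81 and 10.8 CPM in KO-Drug, at 19.8, 25.0, 11.9 and 18.4 CPM in KO and at 20.1, 13.3, 15.7 and 14.1 CPM in Het. KO-Drug lay below all libraries of both other groups, though KO-Drug 2 nearly met KO 5. It was called lower in KO-Drug vs KO (log2 -0.88, SE 0.21, adjusted p = 0.0117), and that call held without any 1 library. The call in KO-Drug vs Het (log2 -0.63, SE 0.21, adjusted p = 0.0472) was lost under total-count scaling (adjusted p = 0.197) and without KO 2, KO 6, KO-Drug 1, KO-Drug 3, KO-Drug 4, Het 1, Het 3 or Het 4 (adjusted p = 0.0578 to 0.126). In KO vs Het Timp2 changed by 0.25 (SE 0.21, adjusted p = 0.359).

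Timp3, the matrix-bound inhibitor, averaged 29.6 ± 4.68 CPM in KO-Drug, 32.0 ± 10.4 CPM in KO and 28.3 ± 2.84 CPM in Het (SD, n = 4 each), with overlapping groups and no call. Timp4 had no count in KO-Drug, 5, 7, 5 and 0 counts in KO and none in Het.

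The lysyl oxidases, the copper enzymes of collagen crosslinking, had 3 of 4 tested genes called higher in KO vs Het and 3 of 4 called lower in KO-Drug vs KO, comparisons that share the KO libraries. Loxl2 (gene number 94352, chr14:69608692-69695834), which crosslinks collagen IV and fibrillar collagen, was at 4.84, 4.90, 3.09 and 2.07 CPM in KO-Drug, at 7.71, 10.2, 4.29 and 7.56 CPM in KO and at 1.55, 2.29, 2.27 and 2.50 CPM in Het. KO lay above Het in every library, and KO-Drug lay between them with overlap on both sides. The log2 change was 1.78 in KO vs Het (SE 0.32, adjusted p = 0.00084), a call that held without any 1 library. In KO-Drug vs KO it was -0.99 (SE 0.31, adjusted p = 0.038), a call lost without KO 2, KO 4, KO 6, KO-Drug 3 or KO-Drug 4 (adjusted p = 0.0654 to 0.115).

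Loxl4 was at 1.21, 1.41, 1.16 and 0.955 CPM in KO-Drug, at 2.70, 5.04, 2.45 and 3.51 CPM in KO and at 0.670, 1.35, 0.846 and 0.918 CPM in Het. KO lay above both other groups, which overlapped. The change was 1.84 in KO vs Het (SE 0.31, adjusted p = 0.00061) and -1.52 in KO-Drug vs KO (SE 0.31, adjusted p = 0.0053), and both calls held without any 1 library. Loxl3 was at 2.47, 1.51, 1.98 and 2.02 CPM in KO-Drug, at 4.05, 5.08, 2.89 and 2.70 CPM in KO and at 1.39, 2.34, 1.75 and 2.35 CPM in Het. KO again lay highest, by a narrow margin in KO 5 and KO 6. Its change was 0.91 in KO vs Het (SE 0.28, adjusted p = 0.0185; 0.0638 without KO 4) and -0.88 in KO-Drug vs KO (SE 0.28, adjusted p = 0.0402), the second call being lost without KO 2, KO 4, KO-Drug 2, KO-Drug 3 or KO-Drug 4 (adjusted p = 0.0821 to 0.123).

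Lox, the founding member of the family, had 9, 0, 0 and 0 counts in KO-Drug, 51, 26, 12 and 15 counts in KO and 5, 0, 0 and 4 counts in Het. In CPM the lowest KO library stood at 0.350, above every Het library (at most 0.258) but below KO-Drug 1 (0.454); the gene was set aside by the filter, and a fit without it did not call KO vs Het (log2 2.93, SE 1.20, adjusted p = 0.08). Loxl1, a crosslinker of elastin, overlapped between all groups (0 to 0.313 CPM in KO-Drug, 0.117 to 1.17 CPM in KO, 0 to 1.08 CPM in Het) and was not called.

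Of the 3 lysyl hydroxylases tested, 0 were called in any of the 3 comparisons. Plod1 averaged 46.6 ± 2.42 CPM in KO-Drug, 41.7 ± 4.21 CPM in KO and 41.8 ± 15.8 CPM in Het, and Plod3 25.0 ± 2.85 CPM in KO-Drug, 32.5 ± 1.48 CPM in KO and 31.3 ± 7.44 CPM in Het (SD, n = 4 each). Plod2, which hydroxylates the collagen telopeptides, was low at 0.662 to 1.51 CPM in KO-Drug, 0.465 to 2.89 CPM in KO and 0.468 to 0.918 CPM in Het. The log2 change in KO vs Het was 0.00 for Plod1 (SE 0.24, adjusted p = 0.992), 1.00 for Plod2 (SE 0.56, adjusted p = 0.175) and 0.06 for Plod3 (SE 0.16, adjusted p = 0.805). The Plod1 value took the opposite sign in 8 of 21 alternatives, and total-count scaling called all 3 higher in KO.

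The procollagen N-proteinases trim the amino end of fibrillar procollagen. Adamts2, the main one, was at 2.27, 2.24, 1.38 and 2.34 CPM in KO-Drug, at 6.54, 6.48, 3.62 and 5.45 CPM in KO and at 1.80, 2.13, 3.07 and 3.16 CPM in Het. Every KO library was above all others. The change was 1.12 in KO vs Het (SE 0.27, adjusted p = 0.0051) and -1.42 in KO-Drug vs KO (SE 0.27, adjusted p = 0.0042), and both calls held without any 1 library. Adamts3 and Adamts14, with related activity, were not called in any comparison (log2 0.99 and 0.89 in KO vs Het, adjusted p = 0.0929 and 0.298).

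Of the proteoglycan-cleaving ADAMTSs, Adamts15 was called higher than Het in both knockout groups. It was at 2.72, 1.15, 2.81 and 4.09 CPM in KO-Drug, at 2.26, 5.41, 2.13 and 3.93 CPM in KO and at 0.928, 0.623, 0.635 and 0.561 CPM in Het. KO-Drug and KO overlapped, and both lay above every Het library. The change was 1.96 in KO-Drug vs Het (SE 0.43, adjusted p = 0.0055), 2.30 in KO vs Het (SE 0.43, adjusted p = 0.001) and -0.34 in KO-Drug vs KO (SE 0.39, adjusted p = 0.572).

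Adamts9 was at 2.62, 2.71, 1.87 and 1.54 CPM in KO-Drug, at 5.22, 5.92, 3.79 and 1.77 CPM in KO and at 2.63, 1.40, 2.70 and 1.89 CPM in Het. KO 6 lay inside the Het range, and the call in KO vs Het (log2 0.95, SE 0.36, adjusted p = 0.0469) was lost without any 1 library other than KO 6 (adjusted p = 0.05 to 0.136). Adamts1, a versican-cleaving enzyme, averaged 16.5 ± 2.15 CPM in KO-Drug, 16.7 ± 2.25 CPM in KO and 13.3 ± 2.92 CPM in Het (SD, n = 4 each) without a call. Adamts4, an aggrecanase, lay higher in every KO library than in Het (0.729 to 1.96 CPM against 0 to 0.412 CPM) and missed the threshold (log2 2.92, SE 1.14, adjusted p = 0.0563). Of 21 alternatives, 10 called Adamts4 higher in KO vs Het, DESeq2 among them, and the others did not. Adamts5 was not called (log2 -0.06 in KO vs Het, adjusted p = 0.906), and Adamts20 had 5 counts in KO 2 alone.

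Adamts12, a protease that cuts cartilage oligomeric matrix protein, was at 0.857, 0.938, 0.386 and 0.849 CPM in KO-Drug, at 2.67, 4.29, 1.25 and 2.49 CPM in KO and at 0.258, 0.675, 0.423 and 0.612 CPM in Het. KO was highest in every library. The change was 2.42 in KO vs Het (SE 0.45, adjusted p = 0.0011) and -1.80 in KO-Drug vs KO (SE 0.43, adjusted p = 0.0122), and both calls held without any 1 library.

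Adamts7, which shares that substrate, was at 2.82, 3.49, 3.91 and 3.34 CPM in KO-Drug, at 6.45, 4.24, 8.20 and 4.90 CPM in KO and at 9.95, 8.16, 5.66 and 5.71 CPM in Het. KO-Drug lay below every library of both other groups, which overlapped. The change was -1.12 in KO-Drug vs Het (SE 0.25, adjusted p = 0.0064), which held without any 1 library, and -0.30 in KO vs Het (SE 0.24, adjusted p = 0.338). In KO-Drug vs KO it was -0.81 (SE 0.25, adjusted p = 0.0357), a call lost without KO 2, KO 5 or any 1 KO-Drug library (adjusted p = 0.0581 to 0.0926).

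Adamts13, the protease of von Willebrand factor made by stellate cells, averaged 8.36 ± 0.706 CPM in KO-Drug, 11.3 ± 2.88 CPM in KO and 10.6 ± 2.52 CPM in Het (SD, n = 4 each), with no call. Adamts6 and Adamts10 were not called either. Adamts10 lay lower in every KO-Drug library than in KO (0.908 to 1.96 CPM against 2.15 to 3.08 CPM; log2 -0.97, SE 0.33, adjusted p = 0.0552). Adamts16, Adamts17 and Adamts19 had at most 5 counts in a library.

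The ADAMTS-like genes encode secreted proteins without a protease domain. Adamtsl2 was at 1.31, 1.67, 1.76 and 3.45 CPM in KO-Drug, at 4.22, 6.95, 2.63 and 4.14 CPM in KO and at 2.89, 2.49, 2.70 and 2.80 CPM in Het. KO-Drug 4 lay inside the KO range. The call in KO-Drug vs KO (log2 -1.12, SE 0.33, adjusted p = 0.0315) was lost without KO 2, KO 4, KO-Drug 1, KO-Drug 2 or KO-Drug 3 (adjusted p = 0.0555 to 0.101).

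Adamtsl3 was at 0, 0.469, 0.551 and 0 CPM in KO-Drug, at 0.557, 0.793, 0.729 and 0.718 CPM in KO and at 0, 0.260, 0 and 0 CPM in Het. The groups KO and Het did not overlap (log2 3.32, SE 1.14, adjusted p = 0.0332). That call was lost without Het 1, Het 3, Het 4 or any 1 KO library (adjusted p = 0.0507 to 0.0878), and without Het 2 the fitted value was 6.98 with Het then at 0. Adamtsl1 had no count in KO-Drug, 11, 21, 10 and 10 counts in KO and 18, 0, 8 and 0 counts in Het. It was at least 11.6-fold lower in KO-Drug than in KO, and a fit without the filter called it (adjusted p = 0.0409). Adamtsl4 and Adamtsl5 were not called in any comparison.

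Levels of different genes are compared in FPKM, the deposited length-scaled value, which is scaled to each library's total and not by TMM. Over the 12 libraries the order was Mmp19 (20.0 FPKM), Plod1 (10.7), Mmp15 (9.34), Plod3 (7.38), Mmp14 (5.45), Timp3 (5.26), Timp2 (3.44), Adamts1 (2.61) and Adamts13 (1.80), and no other gene reached 1 FPKM. Among neighbours in this order, Mmp14 at 3.22 ± 0.161 FPKM in KO-Drug, 9.26 ± 2.01 FPKM in KO and 3.88 ± 0.508 FPKM in Het and Timp3 at 4.89 ± 0.819 FPKM in KO-Drug, 6.78 ± 2.33 FPKM in KO and 4.12 ± 0.481 FPKM in Het (SD, n = 4 each) change places between groups, and in Het they differed by less than their SD. In KO, Timp1 (1.79 ± 1.23 FPKM) and Mmp27 (2.14 ± 1.41 FPKM) differed from Adamts13 (2.43 ± 0.601 FPKM) by less than their SD (n = 4 each), whereas in Het Timp1 was listed at 0.

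**Figure D3:**
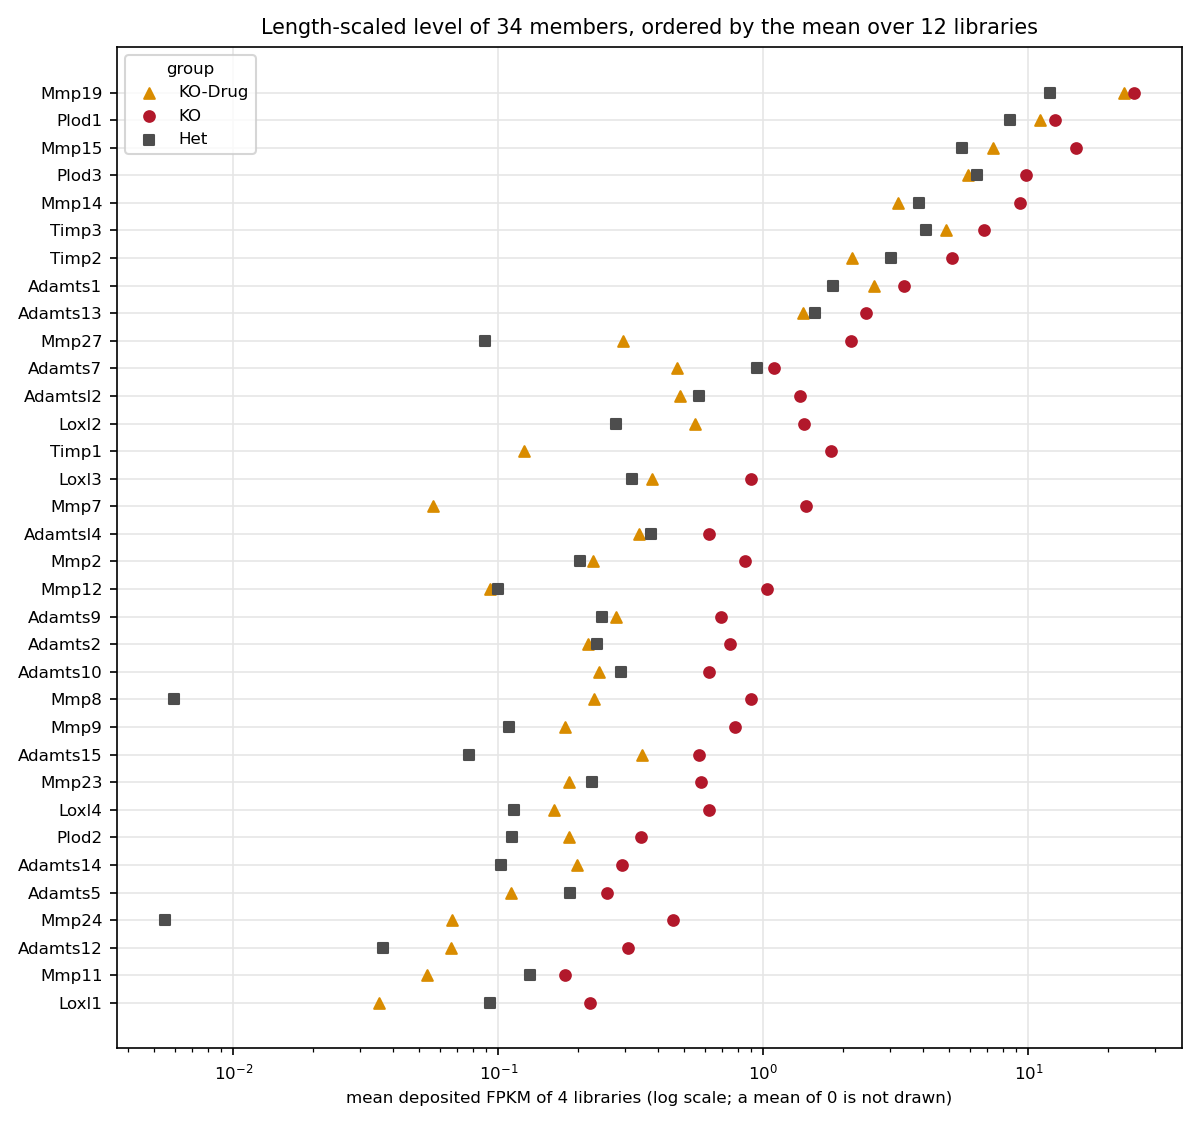
Mean deposited FPKM of the 34 genes with at least 0.1 FPKM over the 12 libraries, on a log axis, for KO-Drug (triangles), KO (circles) and Het (squares). The KO circle lies to the right of the Het square in every row; FPKM is scaled to library totals, under which the median of all genes also shifts upward in KO. Means of 0 (Timp1 and Mmp7 in Het) are not drawn.

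Lists of neighbouring matrix genes were read in the same fit. Of 26 tested genes of protease activation and pericellular control, 10 were called higher and 1 lower in KO vs Het, with a median of 0.54, where 23.0% and 17.7% of all genes were called. In KO-Drug vs KO 6 were called lower and 0 higher, with a median of -0.39, where 11.0% and 8.80% of all genes were called. Without KO 5 and KO 6, 8 were higher and 0 lower in KO vs Het, and 4 were lower in KO-Drug vs KO. In that fit 19.5% of all genes were higher in KO vs Het and 10.8% lower in KO-Drug vs KO. Cd44, a hyaluronan receptor that also docks MMP9, averaged 15.5 ± 5.72 CPM in KO-Drug, 44.4 ± 27.7 CPM in KO and 9.71 ± 3.32 CPM in Het (SD, n = 4 each; log2 2.19 in KO vs Het, SE 0.44, adjusted p = 0.0017; -1.51 in KO-Drug vs KO, SE 0.43, adjusted p = 0.0255). Mep1a, the alpha subunit of the metalloprotease meprin, had 0 to 2.98 CPM in KO-Drug, 0.938, 4.66, 23.9 and 46.3 CPM in KO and no count in Het. Itgb3, an integrin chain, was called higher in KO vs Het (log2 1.45, SE 0.36, adjusted p = 0.0064). Pcolce, the enhancer of procollagen C-proteinase, was lower in KO-Drug than in KO (log2 -1.18, SE 0.23, adjusted p = 0.0049). Reck, a membrane inhibitor of MMPs, was the gene called lower in KO (2.27 ± 0.505 CPM in KO against 3.73 ± 0.488 CPM in Het; log2 -0.71, SE 0.24, adjusted p = 0.0284). Under total-count scaling 17 of the list were called higher in KO and 0 lower, so that the call of Reck was lost. There 10 were called lower in KO-Drug vs KO. Of all genes, that scaling called 51.5% higher in KO vs Het and 29.1% lower in KO-Drug vs KO.

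Of 16 tested genes of collagen maturation and crosslinking, 3 were called higher and 0 lower in KO vs Het, a share of 18.8% beside 23.0% of all genes. They were Tgm2, a crosslinking transglutaminase (log2 1.86, SE 0.23, adjusted p = 5.9e-05), Colgalt1, a collagen galactosyltransferase (log2 0.61, SE 0.14, adjusted p = 0.0044), and Sparc, a collagen-binding protein (log2 0.73, SE 0.25, adjusted p = 0.0307). In KO-Drug vs KO 3 were called lower and 1 higher, where 11.0% and 8.80% of all genes were called. Total-count scaling called 9 higher in KO vs Het, and 9 lower and 1 higher in KO-Drug vs KO. That scaling called 51.5% of all genes higher in KO vs Het, and 29.1% lower and 2.68% higher in KO-Drug vs KO. Without KO 5 and KO 6, 3 were higher in KO vs Het, and 5 lower and 1 higher in KO-Drug vs KO. The shares of all genes in that fit were 19.5%, 10.8% and 8.54%, in the same order. Serpinh1, the collagen chaperone, fell (log2 -1.10, SE 0.25, adjusted p = 0.0102), and Colgalt2 rose to 6.55 ± 1.20 CPM in KO-Drug, against 2.24 ± 0.864 CPM in KO (SD, n = 4 each; log2 1.55, SE 0.29, adjusted p = 0.0037).

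Of 26 tested collagens and other substrates, 14 were called higher and 0 lower in KO vs Het (median 0.84), and 8 lower and 0 higher in KO-Drug vs KO (median -0.54), where 23.0% of all genes were called higher and 11.0% lower. Total-count scaling called 20 higher in KO vs Het and 15 lower in KO-Drug vs KO, beside 51.5% and 29.1% of all genes. Leaving out KO 5 and KO 6, 14 were higher in KO vs Het and 12 lower in KO-Drug vs KO. The shares of all genes in that fit were 19.5% and 10.8%. Col5a3, a chain of type V collagen, was at 7.23 ± 0.616 CPM in KO-Drug, 5.22 ± 1.32 CPM in KO and 0.763 ± 0.230 CPM in Het (SD, n = 4 each), higher than Het in both knockout groups (log2 3.23 and 2.76, SE 0.26 each). Col12a1 was likewise at 3.53 ± 1.18 CPM in KO-Drug, 3.43 ± 0.284 CPM in KO and 0.930 ± 0.367 CPM in Het. Vcan, a proteoglycan that ADAMTS enzymes cut, averaged 0.247 ± 0.122 CPM in KO-Drug and 1.75 ± 1.11 CPM in KO and was at 0 in all Het libraries. Col1a2, a chain of type I collagen, averaged 5.21 ± 1.77 CPM in KO-Drug, 18.3 ± 8.77 CPM in KO and 5.45 ± 1.36 CPM in Het, and fell in KO-Drug vs KO (log2 -1.81, SE 0.34, adjusted p = 0.0042). Nid1, a basement membrane linker, fell there as well (log2 -1.09, SE 0.19, adjusted p = 0.0029).

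Several sums of cell type markers lay higher in every KO library than in every Het library. Which cells made these enzymes in these livers was not measured. The summed level of 10 neutrophil markers was 10.7 to 35.2 CPM in KO-Drug, 18.6 to 94.7 CPM in KO and 2.43 to 14.1 CPM in Het, with KO 4 highest, as for Mmp8 and Mmp9; 4 of 6 tested markers were called higher in KO vs Het (23.0% of all genes), 3 lower in KO-Drug vs KO (11.0% of all genes) and 1, S100a8, higher in KO-Drug vs Het (13.0% of all genes). S100a8, an abundant neutrophil cytosolic protein, was at 19.5, 10.6, 7.28 and 8.49 CPM in KO-Drug, at 9.03, 28.2, 4.14 and 5.83 CPM in KO and at 1.03, 1.30, 0.317 and 1.99 CPM in Het. Ly6g, a defining neutrophil gene, had no count in KO-Drug, 7, 10, 6 and 0 counts in KO and none in Het, which is too low to test. The sum of 14 macrophage and Kupffer cell markers was 335 to 783 CPM in KO-Drug, 800.1 to 1755 CPM in KO and 356 to 466 CPM in Het, and 12 of 14 were called higher in KO vs Het and 10 of 14 lower in KO-Drug vs KO, beside the same 23.0% and 11.0% of all genes. KO 2 had the highest macrophage sum, while Mmp12, the macrophage elastase, was highest in KO 5.

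The sum of 13 stellate cell and myofibroblast markers was 493 to 562 CPM in KO-Drug, 708 to 1139 CPM in KO and 530 to 644 CPM in Het, with 6 of 13 called higher in KO vs Het and 7 of 13 lower in KO-Drug vs KO, beside those 23.0% and 11.0%. The 7 cholangiocyte markers summed to 24.3 to 36.7 CPM in KO-Drug, 55.4 to 147 CPM in KO and 26.9 to 31.3 CPM in Het, again highest in KO 4, the library with most Mmp7 reads. T and NK cell markers summed to 3.02 to 6.40 CPM in KO-Drug, 7.41 to 21.5 CPM in KO and 2.96 to 5.30 CPM in Het. Hepatocyte markers ran the other way, at 69090 to 89635 CPM in KO-Drug, 37253 to 68025 CPM in KO and 80090 to 136100 CPM in Het. Sinusoidal endothelial sums overlapped between all groups. The part of these cell types in the levels of the matrix genes was not tested.

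**Figure D4:**
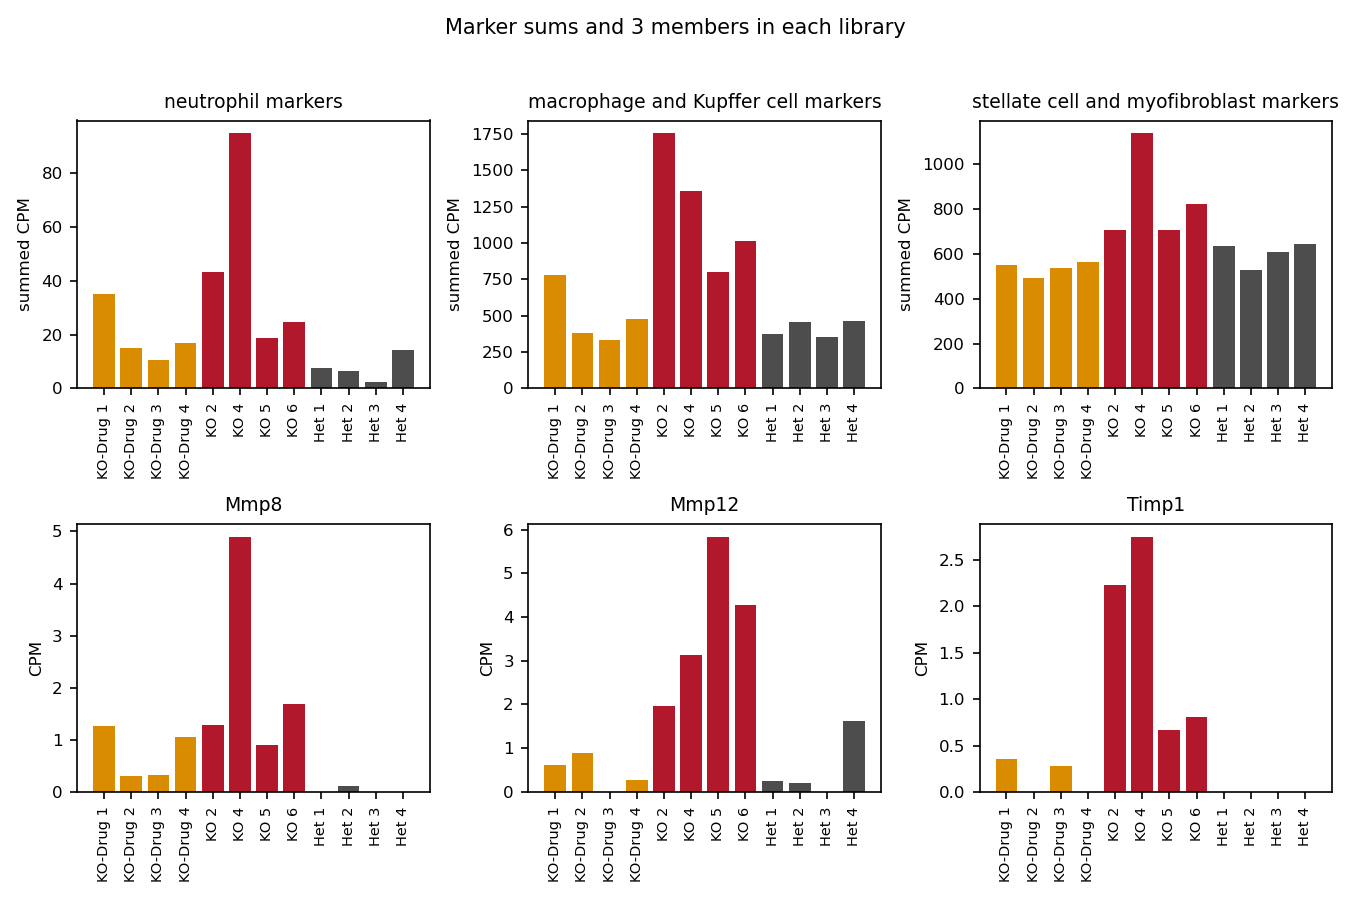
Summed CPM of the neutrophil, macrophage and stellate cell marker lists (upper row) and CPM of Mmp8, Mmp12 and Timp1 (lower row) in each of the 12 libraries, with KO-Drug, KO and Het from left to right. KO 4 is highest for the neutrophil and stellate sums, Mmp8 and Timp1, KO 2 for the macrophage sum and KO 5 for Mmp12.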

How the data were processed

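Per the labels' protocols, liver was flash-frozen, its RNA was purified by RNeasy mini kit, and libraries were TruSeq Stranded Total RNA. The submitters' processing notes list build mm10, StringTie 2.1.3b and FastQC 0.11.7. Aligner, counting tool, its strand setting and the annotation release: not given in the sources used here. Per the file headers, the deposited table holds a whole-number read count and an FPKM per gene and library; 3 unnamed columns were not used.

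Counts entered edgeR 4.0.16 (R 4.3.3): filterByExpr (minimum count 10, minimum total count 15), TMM scaling, 1 quasi-likelihood fit over 12 libraries with group means, contrasts, two-sided tests and Benjamini-Hochberg adjustment over 13379 genes, with calls at an adjusted p under 0.05. The fit was tested on simulated counts. SE is that of the log2 change, and CPM are on TMM-scaled totals. Where a group had no count, folds are bounds against 3 counts over its libraries; with 1 to 3 counts, a Clopper-Pearson 95% interval is given. Both cover counting error only. FPKM, as deposited, served to compare genes and, as log2(FPKM + 0.1) or log2(FPKM + 1) in limma 3.58.1, as alternatives beside DESeq2 1.42.0, other scalings, no filter, a replicate block and left-out libraries. Nothing states that libraries are separate litters, and they were taken as 12 animals. The p-values set a group difference against the spread between libraries, estimated with the other genes and groups.

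The genes, role lists, pathway lists and markers were chosen with earlier results of these data known. Named are all members by role, Atp7b, and from each of the pathway lists the 3 smallest adjusted p in KO vs Het and the 2 smallest in KO-Drug vs KO; Reck, the only fall of its list in KO vs Het, was added after its values were seen. No sequence of chromosome 18, where Lox lies, was used. Positions are from RefSeq, GRCm38.p6, matched by gene number.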

Additional observations from a re-analysis of the deposited data

Results flagged for a closer look

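In 13 of 108 groups of 4 libraries, 1 library's CPM stood far from the other 3 by Dixon's test. Chance alone flags about 1 in 20 groups of normally distributed values, a rate that does not hold for counts near 0. A group with reads in only 1 library is always flagged, as for Mmp24, Adamtsl3 and Mmp8 in Het. The 13 flags can thus not be read as an excess. In Het these were Adamts1 in Het 1 (8.97 CPM, lowest), Plod3 in Het 1 (20.2 CPM, lowest), Mmp23 in Het 1 (1.08 CPM, highest), Mmp24 in Het 1 (0.155 CPM, where the others had none), Adamtsl3 in Het 2 (0.260 CPM, others none), Mmp8 in Het 2 (0.104 CPM, others none), Adamtsl4 in Het 2 (1.14 CPM, lowest) and Mmp12 in Het 4 (1.63 CPM, highest). In KO it was Plod1 in KO 4 (35.4 CPM, lowest). In KO-Drug they were Mmp27 in KO-Drug 1 (2.27 CPM, highest), Plod2 in KO-Drug 1 (1.51 CPM, highest), Adamts2 in KO-Drug 3 (1.38 CPM, lowest) and Adamts12 in KO-Drug 3 (0.386 CPM, lowest).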

How the results depend on the processing

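Of 33 called changes, each recomputed under up to 21 alternatives, 579 of 692 values kept sign and call, 113 kept the sign and lost the call, and 0 reversed. The number of members called higher in KO vs Het was 17, and 29 under total-count scaling, 30 with log2(FPKM + 0.1) and 30 with log2(FPKM + 1), neither of which uses TMM (53.4% and 53.2% of all genes were called higher there); leaving out 1 library gave 12 to 18. The number lower in KO-Drug vs KO was 12, and 22 under total-count scaling, 25 with log2(FPKM + 0.1) and 23 with log2(FPKM + 1) (33.0% and 34.0% of all genes lower); leaving out 1 library gave 5 to 14, with fewer samples in the fit. In KO-Drug vs Het, 2 were higher, and 5 under total-count scaling, 5 with DESeq2 and 1 with log2(FPKM + 1) (2 to 3 with 1 library left out). The shares of all genes in these settings were 18.2%, 15.3% and 15.4%. The 1 gene higher with log2(FPKM + 1) was Mmp19, while Mmp8 and Adamts15 lost their calls there (limma, adjusted p = 0.392 and 0.0787). In the same comparison 2 were lower, and 1 under total-count scaling, 1 without the filter, 1 with log2(FPKM + 0.1) and 0 with log2(FPKM + 1) (1 to 3 with 1 library left out). After each gene's group mean was subtracted from its log2 CPM, libraries of equal number correlated at -0.03 to 0.14 in 8 pairs. The numbers were therefore not taken to pair animals. With the replicate block, 16 members were higher in KO vs Het, 9 lower in KO-Drug vs KO, and 4 higher and 1 lower in KO-Drug vs Het. The shares of all genes, in that order, were 17.4%, 8.28%, 11.7% and 7.09%. Genes with fewer than 10 counts per library, such as Mmp13, Timp4 and Lox in Het, are limited by depth.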
